A study of Mus musculus with 30 samples.

Results

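The DNA repair and damage checkpoint genes described here are 53 named mouse genes, out of 21896 protein-coding genes with a position in the RefSeq table (GRCm38.p6, the assembly of mm10). The 53 were taken by name, with earlier results of these data known, and fall into 8 groups by route. Homologous recombination has 11 genes, non-homologous end joining 5, damage signalling 7, the p53 axis 3, the Fanconi anaemia pathway 9, mismatch repair 4, nucleotide excision repair 10, and base excision with single-strand break repair 4. A gene was counted as having a peak where the summit of a deposited peak lay within 1 kb of its annotated start or end. All 53 names matched the table.

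Chromatin immunoprecipitation with sequencing was used to locate Menin and UTX in WT-MA9, a mouse acute myeloid leukaemia line. Every group carried the same construct, pMSCV-MLL-AF9-GFP, stably expressed, and was grown with IL6, IL3 and SCF. Peak lists for Menin and for UTX, each after DMSO (the vehicle) and after MI-503, came from 1 library apiece, harvested 4 days after treatment. The other 26 of the 30 libraries in the labels were not analysed here, and no dose of MI-503 is stated in the labels. Peak lists hold no expression values, so the labelled cell type was not checked against markers. With 1 library per list, no difference between lists below has a replicate check, and no p-value was computed.

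Menin tethers the histone methyltransferases MLL1 and MLL2 to chromatin, and MI-503 is an inhibitor of the contact between Menin and MLL1. UTX removes methyl groups from lysine 27 of histone H3 and works within complexes built on MLL3 or MLL4. Cells mend double-strand breaks by copying an intact sister (homologous recombination) or by rejoining ends (non-homologous end joining). Base damage, bulky lesions, mispaired bases and crosslinks are handled by base excision, nucleotide excision, mismatch repair and the Fanconi anaemia pathway. The kinases ATM and ATR, with CHK1, CHK2 and p53 downstream, halt the cell cycle while repair proceeds.

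Most of the repair genes carried a Menin peak in DMSO and a UTX peak in MI-503, and almost none carried a peak in the other lists. A Menin DMSO peak lay at 43 of 53 genes (81.1%, exact Clopper-Pearson 95% interval 68.0 to 90.6%), beside 31.2% of all protein-coding genes. Intervals on such shares treat genes as independent draws and do not cover differences between libraries. A UTX MI-503 peak lay at 45 (84.9%, 72.4 to 93.3%), beside 36.4% of all genes. Both were found at 42 (79.2%), beside 28.4% of all genes. Menin in MI-503 had a peak at 0 of the 53, beside 0.00913% of all genes, from a list of 8 peaks. The Menin DMSO list held 11195 peaks and the UTX MI-503 list 14231. UTX in DMSO had a peak at 1, Xrcc3, which is 1.89% beside 0.776% of all genes, from a list of 217 peaks. When Menin DMSO and UTX MI-503 were shortened to their 217 highest peaks, 1 and 2 members were left. The share over all genes at that length was not counted. Menin alone, of the full Menin DMSO and UTX MI-503 lists, was found at Ercc3 (1.89% beside 2.85%). UTX alone was found at Rad50, Mlh3 and Ercc4 (5.66% beside 8.09%). Neither was found at 7 genes (13.2% beside 60.7%), namely Xrcc6, Trp53bp1, Rif1, Mdm4, Fancc, Fancg and Ercc1. Below, a Menin peak without a named treatment is one in DMSO, and a UTX peak without one is in MI-503. Menin and UTX at 1 gene were thus measured in different cultures, and antibody and treatment cannot be told apart between these lists.

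**Figure D1:**
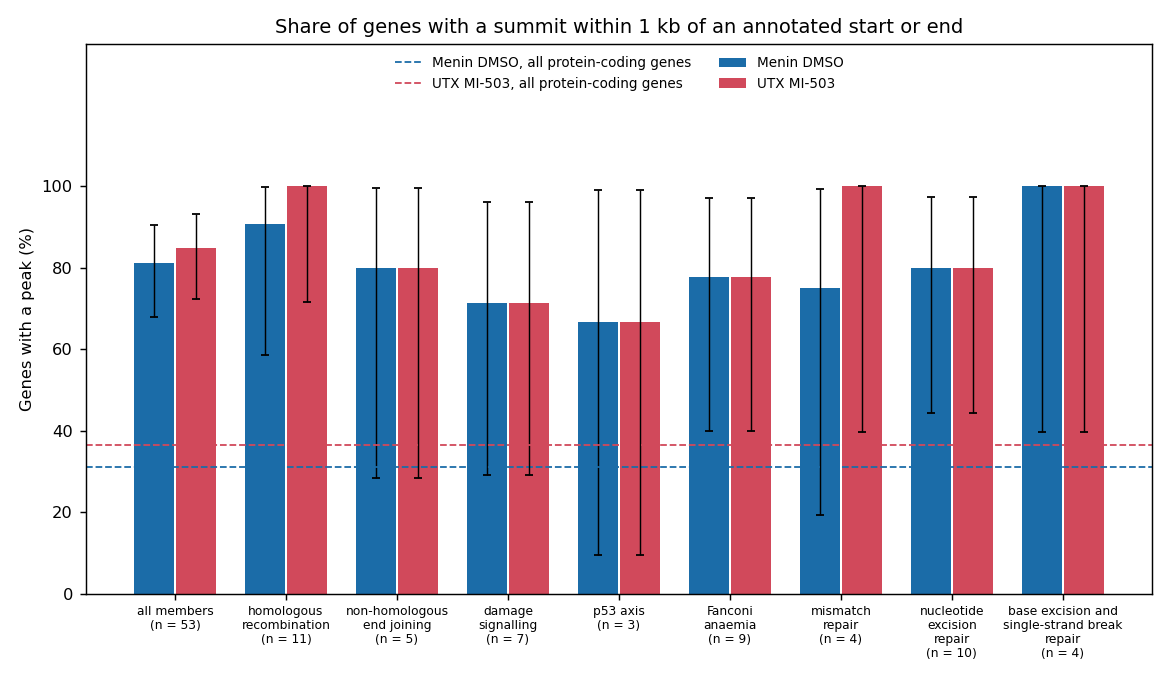
Share of genes with a Menin DMSO (blue) or UTX MI-503 (red) summit no more than 1 kb from an annotated end of the gene, for all 53 members and for each repair route. Bars are percentages, error bars exact 95% intervals for counting error only, and dashed lines the shares over all protein-coding genes (31.2% and 36.4%). Each route's bar lies above its dashed line, and intervals of routes with 3 to 5 genes are wide. For end joining, damage signalling and the p53 axis, the Menin and UTX intervals include the share over all genes. The Menin interval of mismatch repair does as well.

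Each peak is given below by its fold enrichment, the summit pileup over the local background, and in places by −log10 q, the authors' adjusted significance of the peak. The depth behind each value was recovered from the deposited fold and p-value, which together fix the number of fragments at a summit and the local background. In Menin DMSO and UTX MI-503, 300 of 300 peaks tried gave whole fragments. Each antibody had 1 input for both of its lists. From the steps of the pileups, Menin MI-503 had 1.35 times as many reads as Menin DMSO or more, and UTX DMSO had 1.14 times as many as UTX MI-503 or more. These ratios were inferred through the shared input, and the step of Menin MI-503 rests on the 8 peaks of its list. The lists with few peaks among the repair genes therefore came from the deeper libraries, and the cause of their few peaks was not tested. The lowest summit of the UTX DMSO list held 11 fragments and the median summit 18. In UTX MI-503, 44 of the 45 members with a peak had at least 11 fragments at the summit. The lowest summit is not a calling threshold, since calling also depends on the local background. Whether such counts would be called in the DMSO library was not tested. Absolute depth is unknown, and a gene without a peak is one below the authors' calling threshold. Intervals on fragments below are exact Poisson 95% intervals. They cover counting error only, since PCR copies may be among the fragments.

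By annotated ends, homologous recombination had the highest shares of the larger routes, with UTX at 11 of 11 genes and Menin at 10. The exact intervals of these routes overlapped. The gap narrowed where transcription starts inside genes were added, since Fancc and Ercc1 of other routes then had both peaks. Xrcc3, which acts with Rad51c in recombination, was the only member with a peak in 3 lists. Its summits held 49 Menin DMSO fragments (36.3 to 64.8), 16 UTX DMSO fragments (9.15 to 26.0) and 61 UTX MI-503 fragments (46.7 to 78.4), with no Menin MI-503 peak. The UTX MI-503 count was above the UTX DMSO count beyond counting error, although the DMSO library was the deeper. The fold enrichments were 11.1, 8.35 and 33.9, and the last was the highest of any member in any list. The UTX MI-503 peak (mm10, chr12:111813644-111814633) was 990 bp wide and stood above 99.4% of its list by −log10 q. Bard1, the partner of BRCA1 in its ubiquitin ligase, had the highest Menin peak of the members (chr1:71102707-71103398), with 114 fragments (94.0 to 137), 28.3-fold enrichment and a −log10 q of 128. Its UTX peak had 40 fragments (28.6 to 54.5) and 22.4-fold enrichment. The RefSeq windows around the starts of these genes (GRCm38.p6, 250 bp before to 50 bp after the start, written along the transcript) are shown because they hold the highest UTX and the highest Menin peak among the members with a peak by the rule. Capitals mark CCAAT or its reverse ATTGG, the box that the factor NF-Y binds. The Xrcc3 window (chr12:111813830-111814129, minus strand) holds 6 matches and the Bard1 window (chr1:71102923-71103222, minus strand) holds 0.
Xrcc3: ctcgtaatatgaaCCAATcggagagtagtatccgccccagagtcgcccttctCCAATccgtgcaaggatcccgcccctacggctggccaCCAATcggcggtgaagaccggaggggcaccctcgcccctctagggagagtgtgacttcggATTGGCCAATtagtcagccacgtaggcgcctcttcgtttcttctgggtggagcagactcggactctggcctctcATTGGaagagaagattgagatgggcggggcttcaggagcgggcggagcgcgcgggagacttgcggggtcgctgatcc
Bard1: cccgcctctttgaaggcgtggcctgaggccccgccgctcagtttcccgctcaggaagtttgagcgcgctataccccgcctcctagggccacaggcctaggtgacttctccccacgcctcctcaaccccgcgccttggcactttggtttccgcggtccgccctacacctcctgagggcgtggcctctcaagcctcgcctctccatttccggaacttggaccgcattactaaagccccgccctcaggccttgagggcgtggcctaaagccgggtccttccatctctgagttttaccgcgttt

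The tumour suppressor genes of the route had both peaks. Brca1, which directs break ends into recombination, had 9.36-fold Menin and 15.3-fold UTX enrichment. These summits lay 796 and 807 bp from its start and also within 1 kb of Nbr1. Nearer its start, Brca1 had lower peaks of 7.72-fold and 12.1-fold. Its partners Brca2, which works at resected break ends, and Palb2, which bridges the BRCA proteins, had 9.87-fold and 9.59-fold Menin enrichment. UTX enrichment was 7.68-fold at Brca2, the lowest of the route by −log10 q (11.1), and 15.7-fold at Palb2. Of the other genes of strand exchange, Rad51c had 7.45-fold Menin and 22.4-fold UTX enrichment, and Xrcc2 had 7.13-fold and 16.4-fold. Rad51b had 12.03-fold and 13.1-fold, with summits 991 and 946 bp from its annotated start, just inside the limit. A lower UTX summit (5.51-fold) lay 71 bp from that start. Rad51d was the member whose peaks lay at opposite ends of the gene, with a 7.27-fold Menin summit 697 bp from the lower-numbered end, also within 1 kb of Rffl, and a 9.36-fold UTX summit 19 bp from the other. The break-sensing MRN complex was covered unevenly. Nbn had the lowest Menin peak of the route (5.80-fold, 22 fragments, 13.8 to 33.3) and a 9.98-fold UTX peak, and Rad50 had UTX alone (14.4-fold, 26 fragments, 17.0 to 38.1). The nearest Menin summit to Rad50 lay inside the gene, 22199 bp from its nearer end.

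In non-homologous end joining, 4 of 5 genes had both peaks. Prkdc, which encodes the catalytic subunit of DNA-PK, led the route in both lists by −log10 q (27.6 and 46.6), at 9.06-fold with 45 Menin fragments and 20.3-fold with 42 UTX fragments. Xrcc4 and Lig4, the scaffold and the ligase that seal the ends, had 6.38-fold and 7.84-fold Menin enrichment and 9.74-fold and 10.9-fold UTX enrichment. Xrcc5, which encodes the KU80 subunit of the end-binding Ku dimer, had 9.53-fold Menin and the lowest UTX peak of the route (6.53-fold, 15 fragments, 8.40 to 24.7). Its partner Xrcc6 (KU70) had no peak by the rule, because its annotated start lies 28536 bp upstream of the transcription start in the RefSeq promoter table. At that transcription start, a Menin summit lay 50 bp away with 116 fragments (95.9 to 139) and 26.0-fold enrichment, above 99.0% of the Menin list. A UTX summit lay 87 bp away with 42 fragments (30.3 to 56.8) and 21.8-fold enrichment. Lig4 was similar in part, since its highest peaks lay at a start inside the gene, 15.8-fold for Menin and 19.7-fold for UTX, 1269 and 1330 bp from the annotated boundary. The Xrcc6 window (chr15:82016119-82016418, plus strand) is shown because it marks the start that the annotated boundary misses, with its single CCAAT match in capitals.
Xrcc6: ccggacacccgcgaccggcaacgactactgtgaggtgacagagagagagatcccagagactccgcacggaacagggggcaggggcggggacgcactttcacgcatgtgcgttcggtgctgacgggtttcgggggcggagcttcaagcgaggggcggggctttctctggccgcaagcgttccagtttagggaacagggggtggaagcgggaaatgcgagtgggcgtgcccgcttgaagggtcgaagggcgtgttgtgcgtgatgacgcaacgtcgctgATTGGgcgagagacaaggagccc

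Damage signalling genes had both peaks at 5 of 7. Atm, the kinase that responds to double-strand breaks, led in both lists (Menin chr9:53536626-53537230, UTX chr9:53536469-53537252). It had 74 Menin fragments (58.1 to 92.9) at 17.6-fold and 55 UTX fragments (41.4 to 71.6) at 30.6-fold. Atr, the kinase that responds to stalled forks, had 8.95-fold and 12.6-fold, the latter the lowest UTX peak of the route by −log10 q (20.9). The effector kinases were close to each other, with 7.12-fold and 12.5-fold at Chek1 and 7.22-fold and 13.3-fold at Chek2. Mdc1, a mediator that binds phosphorylated H2AX, had 6.95-fold Menin and 24.1-fold UTX enrichment. Its 74 Menin fragments equalled those of Atm, on a background of 9.78 fragments rather than 3.26, which was the highest background of any member. Trp53bp1, which steers breaks toward end joining, had no peak by the rule but had both at a transcription start 24947 bp inside its annotated boundary. The Menin summit lay 9 bp from that start (7.45-fold, 38 fragments) and the UTX summit 85 bp from it (17.5-fold, 42 fragments). Rif1, its partner, had none. The nearest Menin summit was 34763 bp and the nearest UTX summit 137907 bp from the ends of Rif1, and no summit of either list lay inside it.

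Within the p53 axis, Trp53 and Mdm2 had both peaks. Mdm2 alone kept Menin at a fold of at least 5, and Mdm2 alone kept either peak within 500 bp. Trp53, the gene of p53 itself, had 20 Menin fragments (12.2 to 30.9) at 4.65-fold and 10 UTX fragments (4.80 to 18.4) at 6.02-fold, the fewest UTX fragments of any member. Both summits lay upstream, 977 and 810 bp from the annotated start, and within 1 kb of Wrap53, a gene needed for telomerase trafficking. A further Menin summit 1069 bp and a UTX summit 1173 bp from the start fell just outside the limit (5.36-fold and 5.47-fold). Mdm2, the ubiquitin ligase that degrades p53, had 27 Menin fragments (17.8 to 39.3) at 6.02-fold and 39 UTX fragments (27.7 to 53.3) at 21.9-fold. The related inhibitor Mdm4 had no peak by the rule. At a start 5171 bp inside its boundary it had a Menin summit of 19 fragments at 4.69-fold and a UTX summit of 31 fragments at 14.9-fold.

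Of the 9 Fanconi anaemia genes, 7 had both peaks. Fancm, the translocase that recognises stalled forks, led in both lists with 68 Menin fragments (52.8 to 86.2) at 11.7-fold and 39 UTX fragments at 21.4-fold. Those summits lay at the annotated start it shares with Fkbp3, and a second pair stood near a start further in, at 4.58-fold and 14.1-fold. Fancd2 and Fanci form the dimer that is ubiquitinated at crosslinks. Fancd2 had 10.1-fold and 15.8-fold, and Fanci had 4.41-fold and 9.16-fold. Fancl, the ligase subunit that ubiquitinates them, had the lowest Menin peak of the route (4.33-fold, 21 fragments) and a 10.8-fold UTX peak. Among core complex genes, Fanca had 6.50-fold and 16.7-fold, Fancf 5.40-fold and 17.0-fold, and Fance 8.90-fold and 8.21-fold, the lowest UTX peak of the route by −log10 q (10.3). Fancc had no peak by the rule, with its transcription start 65547 bp inside the annotated boundary. The highest Menin summit, of 28 fragments (7.90-fold), lay 543 bp and a UTX summit of 13 fragments (7.66-fold) lay 92 bp from that start. A lower Menin summit lay 102 bp from it. Fancg had none within 1 kb of its ends or its start. The nearest summits were 1751 bp (Menin, 9.63-fold) and 1748 bp (UTX, 22.2-fold) from its boundary, at the neighbouring gene Vcp.

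**Figure D2:**
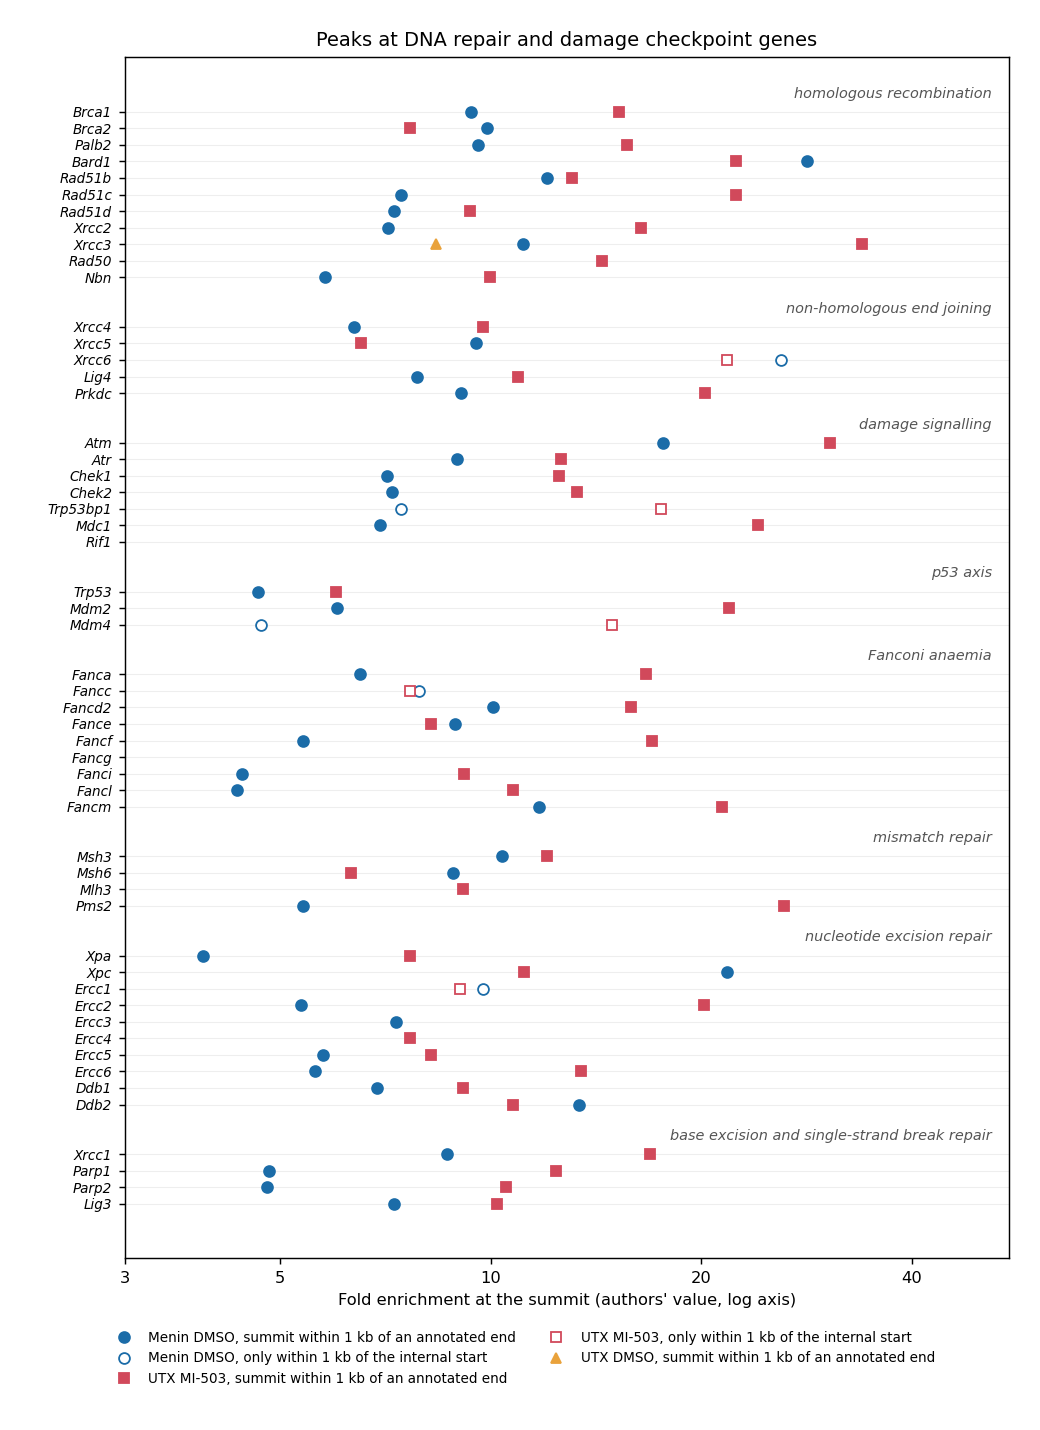
Fold enrichment at the summit (log axis, authors' values) for each of the 53 genes by repair route, with Menin DMSO as circles, UTX MI-503 as squares and UTX DMSO as a triangle. Filled symbols are peaks within 1 kb of an annotated gene end, and open symbols those found only within 1 kb of a transcription start inside the gene. Rif1 and Fancg have no symbol, and the highest points are Xrcc3 for UTX (33.9) and Bard1 for Menin (28.3).

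Mismatch repair had UTX at 4 of 4 genes and Menin at 3. Pms2, an endonuclease that nicks the strand to be corrected, had the lowest Menin peak of the route by −log10 q (16.7) and the highest UTX peak. It had 44 Menin fragments (32.0 to 59.1) at 5.40-fold and 47 UTX fragments (34.5 to 62.5) at 26.3-fold, on backgrounds of 7.34 and 0.827 fragments. Msh6, which recognises single mispairs, had the reverse order, with 51 Menin fragments (37.97 to 67.1) at 8.83-fold and 11 UTX fragments (5.49 to 19.7) at 6.32-fold. These summits were 569 bp apart, and the UTX peak that overlapped the Menin peak was a lower one (4.31-fold). Msh3, which recognises larger loops, had 10.4-fold and 12.04-fold, and Mlh3 had UTX alone (9.13-fold, 25 fragments, 16.2 to 36.9). The Pms2 window (chr5:143909751-143910050, plus strand) is shown for its 3 CCAAT matches, in capitals, beside the highest UTX peak of the route.
Pms2: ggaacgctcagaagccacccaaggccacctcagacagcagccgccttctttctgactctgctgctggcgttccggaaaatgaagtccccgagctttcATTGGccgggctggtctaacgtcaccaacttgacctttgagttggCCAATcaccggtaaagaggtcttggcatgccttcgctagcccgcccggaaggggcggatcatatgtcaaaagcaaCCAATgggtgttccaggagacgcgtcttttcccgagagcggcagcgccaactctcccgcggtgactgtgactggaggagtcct

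In nucleotide excision repair, 8 of 10 genes had Menin, 8 had UTX and 7 had both. Of the damage recognition genes, Xpc and Ddb2 had higher Menin than UTX enrichment. Xpc, the lesion sensor, had 82 Menin fragments (65.2 to 102) at 21.7-fold, the highest of the route, and 20 UTX fragments (12.2 to 30.9) at 11.1-fold. Ddb2, its partner for ultraviolet damage, had 13.4-fold and 10.8-fold, and Ddb1 had 6.88-fold and 9.14-fold. The helicase gene Ercc2 (XPD, a TFIIH subunit) had 5.35-fold Menin and 20.2-fold UTX enrichment, the highest UTX peak of the route, on backgrounds of 8.15 and 1.47 fragments. The other TFIIH helicase gene, Ercc3, had Menin alone (7.31-fold, 33 fragments, 22.7 to 46.3). Xpa, the verification factor, had the lowest Menin fold of all members (3.88, with 25 fragments) and a 7.66-fold UTX peak. Of the nucleases, Ercc4 (XPF) had UTX alone, at the same values as Xpa (7.66-fold, 13 fragments, 6.92 to 22.2), and Ercc5 (XPG) had 5.77-fold and 8.23-fold with summits 983 and 971 bp from the boundary. Ercc1, the partner of XPF, had no peak by the rule, with summits 1294 and 1225 bp from its boundary. These were 290 and 221 bp from its transcription start, at 9.75-fold with 60 Menin fragments and 9.03-fold with 28 UTX fragments. Ercc6 (CSB), which couples repair to transcription, had 5.60-fold and 13.5-fold.

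Base excision and single-strand break repair had both peaks at 4 of 4 genes. Xrcc1, the scaffold of single-strand break repair, led both lists, with 43 Menin fragments (31.1 to 57.9) at 8.65-fold and 31 UTX fragments (21.1 to 44.0) at 16.9-fold. The ligase gene Lig3 had 7.27-fold and 10.2-fold, the latter the lowest UTX peak of the route by −log10 q (16.1). The strand break sensors had 4.82-fold and 12.4-fold at Parp1 and 4.79-fold and 10.5-fold at Parp2. With a fold of at least 5 required, Parp1 and Parp2 lost their Menin peaks and the Menin count of the route fell to 2. The Menin background at Parp1 was 8.97 fragments, under 47 fragments at the summit.

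The routes did not separate clearly by share. Menin shares ran from 66.7% of p53 axis genes to 100% of base excision genes, and UTX shares from 66.7% to 100%, with overlapping exact intervals throughout. Median UTX enrichment by route ran from 9.96-fold in nucleotide excision repair to 15.8-fold in the Fanconi anaemia pathway and 15.3-fold in homologous recombination. Median Menin enrichment ran from 5.34-fold in the p53 axis to 9.48-fold in homologous recombination. These medians are over members with a peak, which had to pass the calling threshold.

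The levels at the members with a peak resembled those at other genes with a peak. Median Menin enrichment was 7.27-fold over 43 members (lower and upper quartile 5.79 and 9.56) and 7.34-fold over the 6832 genes with a Menin peak. Median UTX enrichment was 12.5-fold over 45 members (9.36 and 16.9) and 10.1-fold over 7980 genes. Where both peaks were present, UTX enrichment was higher than Menin enrichment at 35 of 42 members (83.3%), beside 79.1% of the 6208 genes with both. The exceptions were Brca2, Bard1, Xrcc5, Fance, Msh6, Xpc and Ddb2. Fragment counts had the other order, with more Menin than UTX fragments at 34 of the 42 and medians of 39.5 and 23.5. The median background was 3.86 fragments for Menin and 0.931 for UTX, and fold is the ratio of the summit to this background after adding 1 to each. Enrichment in the 2 lists is therefore set side by side here and not compared as occupancy. Across the 42 members, the rank correlation of Menin with UTX enrichment was 0.24 (Spearman), beside 0.43 across the 6208 genes. The points are genes of the same libraries and inputs, not independent replicates.

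**Figure D3:**
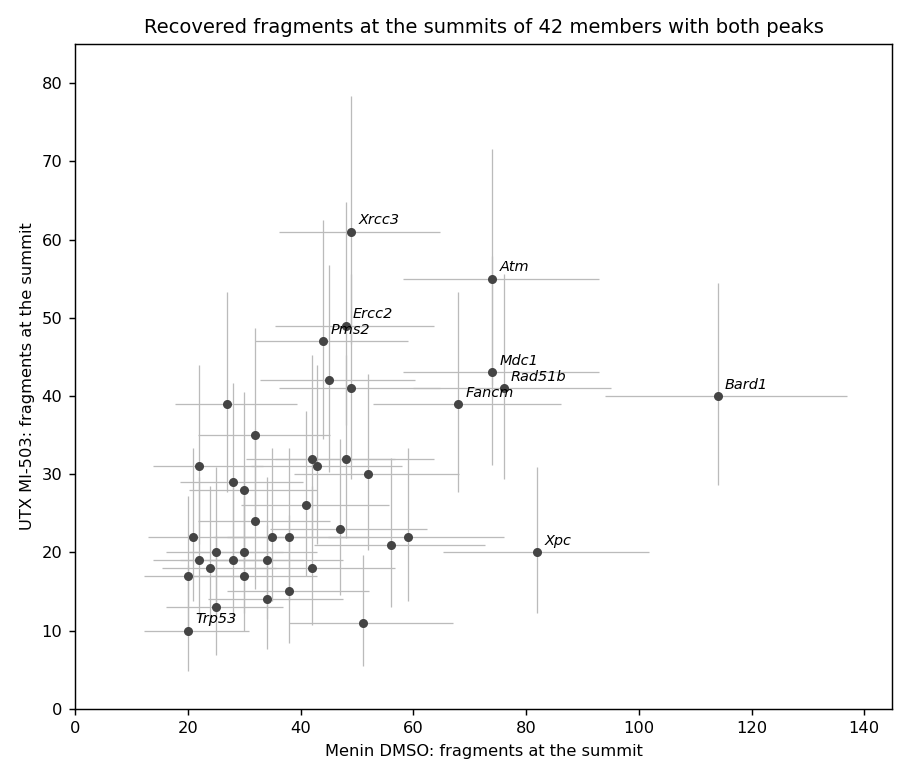
Fragments at the summit of the Menin DMSO peak (horizontal axis) and of the UTX MI-503 peak (vertical axis) for the 42 members with both. Points are genes and lines exact Poisson 95% intervals for counting error. Bard1 (114 and 40) and Xpc (82 and 20) lie to the right, Xrcc3 (49 and 61) lies highest, and Trp53 (20 and 10) is the lowest point.

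Menin and UTX were found at nearly the same position. The summits were a median of 32 bp apart at the 42 members with both, beside 39 bp over all genes with both. They lay within 100 bp of each other at 34 members (81.0%, beside 78.8%), and the peaks overlapped at 40 (95.2%, beside 94.6%). Rad51d and Msh6, by their highest peaks, were the exceptions. More than 1 UTX peak lay in the window at 11 of 45 members (24.4%, beside 20.6%), among them Xrcc1, Brca1 and Atm, and more than 1 Menin peak at 3 of 43 (6.98%, beside 9.60%).

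Transcription starts, with strand, were given by RefSeq for 43 of the 53 members. Counted at these starts, Menin lay within 1 kb of 40 (93.0%, 80.9 to 98.5%), beside 33.5% of the 17491 protein-coding genes with a start. UTX lay within 1 kb of 42 (97.7%, 87.7 to 99.9%), beside 39.1%. UTX in DMSO lay at 1 (Xrcc3), beside 0.863%. Fancg had no Menin or UTX MI-503 peak, and Mlh3 and Ercc4 lacked Menin. Xrcc6, Trp53bp1, Mdm4, Fancc and Ercc1 had both in this count and none in the count by annotated ends. Of the members with a peak by the rule that lay within 1 kb of a start, 23 of 34 Menin summits (67.6%) and 21 of 36 UTX summits (58.3%) were within 100 bp of it. The shares over all such genes were 60.2% and 54.0%. The median position was 39 bp upstream for Menin (64 bp over all such genes) and 56 bp upstream for UTX (46 bp). Inside the gene lay 9 of 34 Menin summits (26.5%, beside 24.1%) and 14 of 36 UTX summits (38.9%, beside 35.8%).

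**Figure D4:**
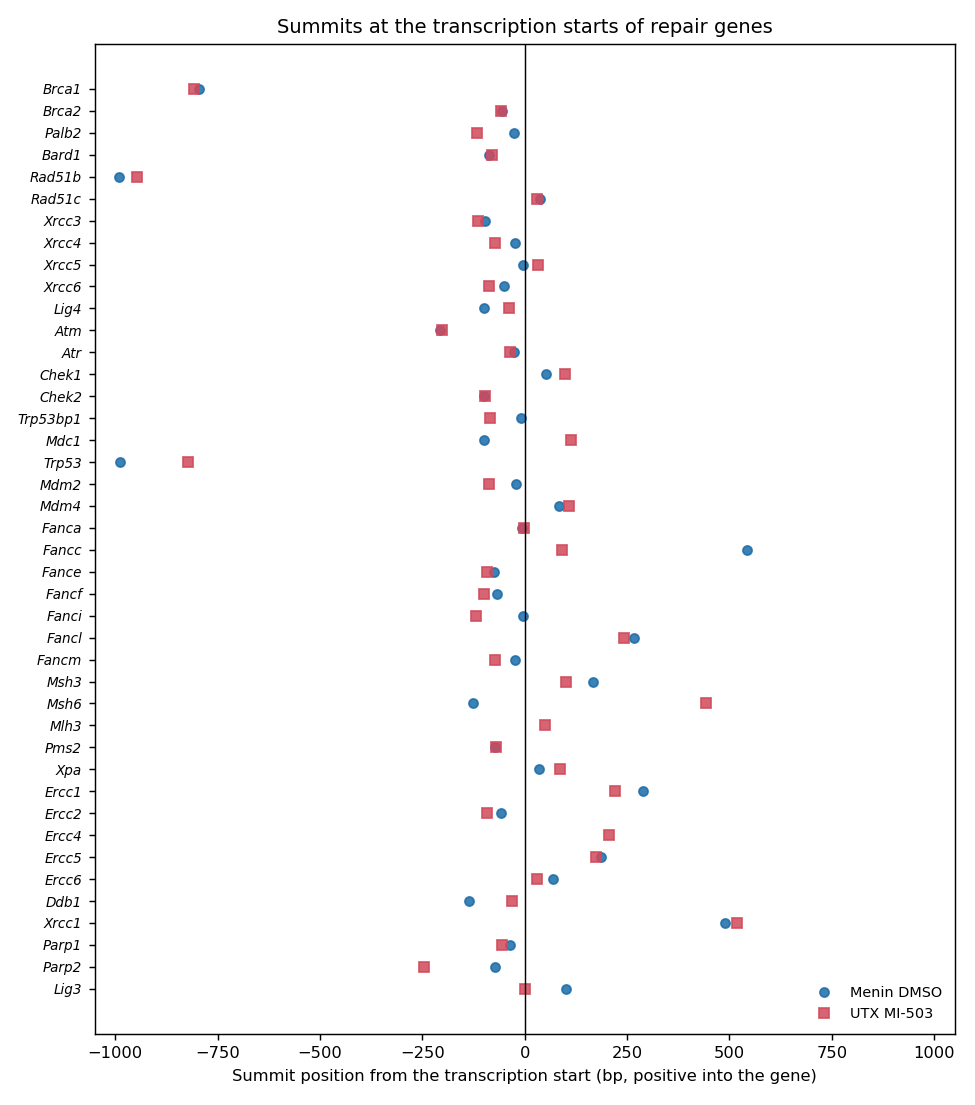
Position of the highest Menin DMSO (circles) and UTX MI-503 (squares) summit within 1 kb of a transcription start, in bp from the start with positive values inside the gene, for the 42 members with a peak there. Most summits lie within 250 bp of the start of their gene. The symbols of Msh6 (-126 and 443 bp) and Fancc (543 and 92 bp) are the farthest apart. Lower summits, not drawn, lay nearer the start, at 79 bp for UTX at Msh6 and 102 bp for Menin at Fancc. Brca1, Rad51b and Trp53 stand 796 to 991 bp upstream.

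Many of these peaks could not be assigned to the repair gene alone. The Menin summit lay within 1 kb of an end of another protein-coding gene at 22 of 43 members (51.2%), beside 31.3% of all genes with a Menin peak. For UTX it was 21 of 45 (46.7%), beside 30.6%. The neighbours included Npat, the histone gene coactivator, at Atm and Mcm4, a subunit of the replicative helicase, at Prkdc. Others were Nbr1 at Brca1, Dctn5 at Palb2, Tex14 at Rad51c, Zfyve26 at Rad51b, Zfyve21 at Xrcc3, Hscb at Chek2, Emc3 at Fancd2, Lsm3 at Xpc and Aimp2 at Pms2. At Brca1, the highest summits lay 796 and 807 bp upstream of its start, toward Nbr1, with lower summits 44 bp (Menin, 7.72-fold) and 23 bp (UTX, 12.1-fold) from the start.

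The start windows of the repair genes were rich in CpG and often held a CCAAT box. The median observed over expected CpG was 0.87 in 48 windows of 43 members, 0.57 in all 21262 windows of protein-coding genes and 0.83 in the 6210 windows with both a Menin and a UTX peak within 1 kb. CCAAT, on either strand, was present in 26 of the 48 member windows (54.2%), beside 38.2% of all windows and 43.9% of those with both peaks. The ETS motif CCGGAAG was present in 12 (25%), beside 11.6% and 25.2%. An E2F motif, TTTGGCGC or TTTCGCGC, was present in 2 (4.17%, beside 1.05% and 2.29%), as was the NRF1 motif (4.17%, beside 1.33% and 3.16%). Both strands were searched, and no motif contains another. The ETS and NRF1 motifs were chosen after values were seen, and a match is not a bound site.

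Median UTX enrichment was highest at starts with 3 or more CCAAT boxes, and median Menin enrichment was not. At starts with 3 or more matches, the 4 members Xrcc3, Pms2, Ercc2 and Fancf had a median UTX enrichment of 23.2-fold (17.0 to 33.9). The median was 13.2-fold (6.02 to 30.6) over 20 members with 1 or 2 matches and 12.2-fold (7.68 to 22.4) over 18 with 0. The ranges of the 3 classes overlapped. Menin medians were 5.40-fold over those 4 members, 8.28-fold over 18 with 1 or 2 and 7.19-fold over 18 with 0. Fold depends on background, which for Menin was 7.34 fragments at Pms2, 8.15 at Ercc2, 3.50 at Xrcc3 and 3.26 at Fancf. The Menin summits there held 44, 48, 49 and 22 fragments. Over all protein-coding genes with a UTX peak at the start, the medians were 16.1-fold with 3 or more matches (544 genes), 11.2-fold with 1 or 2 (2604 genes) and 9.30-fold with 0 (3691 genes). Menin medians over all genes were 7.05-fold, 7.47-fold and 7.24-fold in the same order. The order of the repair genes was thus also that of all genes, and it rests on 4 members in the top class. Windows with 6 or more matches, as at Xrcc3, made up 0.0941% of all windows (20 of 21262). These classes were chosen after the values were seen. Binding of NF-Y at these boxes was not tested.

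**Figure D5:**
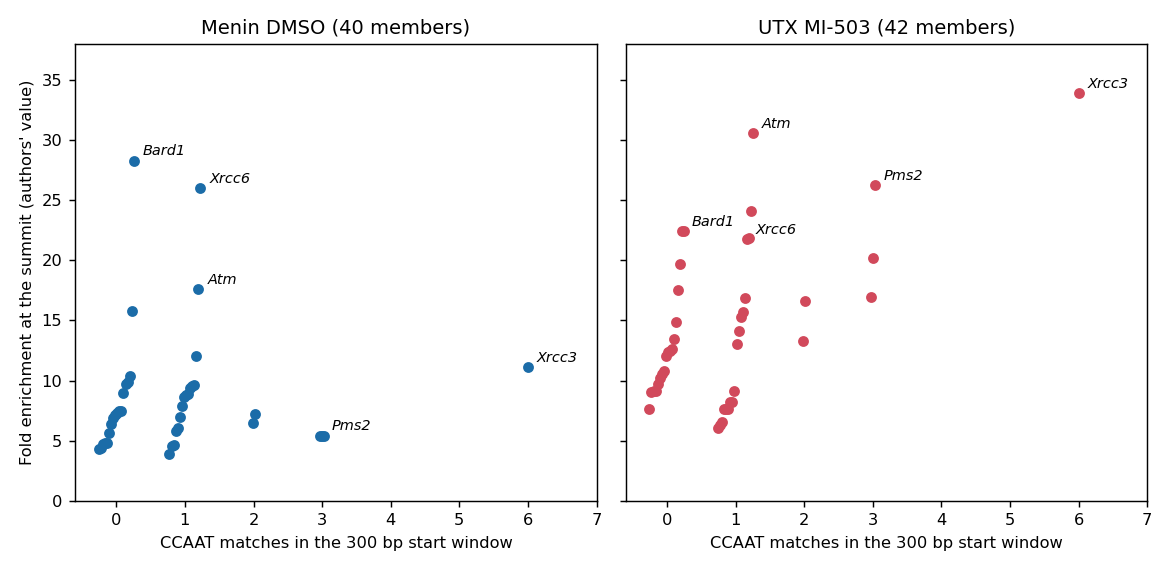
Fold enrichment (authors' values) at the highest Menin DMSO (left, 40 members) and UTX MI-503 (right, 42 members) summit within 1 kb of a transcription start, by the largest number of CCAAT matches in a 300 bp start window of the gene. Points are genes, spread sideways for visibility. The 4 members with 3 or more matches lie between 17.0 and 33.9 for UTX, and for Menin between 5.35 and 11.1.

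Further genes of the same routes also had Menin DMSO and UTX MI-503 peaks in most cases. Of 81 further genes, from every route but the p53 axis, 65 (80.2%) had a Menin peak, beside 31.2% of all protein-coding genes. A UTX peak lay at 70 (86.4%, beside 36.4%), both at 59 (72.8%, beside 28.4%) and a Menin MI-503 peak at 0 (beside 0.00913%). A UTX DMSO peak lay at 2 of the 81 (2.47%, beside 0.776%), Rpa1, a subunit of the single-strand binding protein RPA (7.06-fold), and Mbd4, a thymine glycosylase gene (6.59-fold). Mbd4 also had the highest UTX MI-503 peak of the further base excision genes (33.8-fold, with 9.50-fold Menin). UTX lay at 13 of 13 further signalling genes, led by −log10 q by Rad9a (27.9-fold), a subunit of the checkpoint clamp, Wee1 (21.3-fold), the kinase that restrains CDK1, and Topbp1 (19.6-fold), an activator of ATR. Further recombination genes had UTX at 18 of 21, led in the same ranking by Rpa3 (21.5-fold), Rad54b (20.8-fold) and Brip1 (21.3-fold), and further excision genes of the nucleotide route had Menin at 11 of 11 and UTX at 9. The highest UTX peaks of those by −log10 q were at Gtf2h1 (26.0-fold), Uvssa (29.0-fold) and Rad23b (28.5-fold).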

How the data were processed

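Peaks were called with MACS2 on mm10, per the submitters' processing notes. No version, aligner, filter or threshold is stated there. Per the file headers (peak names), each library was set against a vehicle input, shared by the lists of 1 antibody. The deposited fold is the ratio of summit pileup to local background, each plus 1. The deposited −log10 values give p and q of the summit. The deposited score equals 10 times −log10 q, rounded down, in all 25651 peaks. Summit offsets are in bp.

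Positions were printed from 1. Python 3.11.15, pandas 2.3.3 and scipy 1.17.1 were used. Fragments and background were solved from fold and p-value, with −log10 p matched within 0.01. The best step gave whole fragments in 100% of peaks tried in 3 lists and 99.5% of UTX DMSO peaks, against at most 38.7% at other steps. On simulated peaks, 99.7% of 974 pileups were recovered, and 100% of 300 planted summits were classed correctly. The peak of highest −log10 q stood for a gene. Routes, further genes and members were chosen with earlier results of these data known. Named genes were the highest and lowest of each route by −log10 q, members in 1 list alone, in UTX DMSO or in no list, and those near the 1 kb limit. Other members and the neighbouring genes were named to account for every member, as were the CCAAT classes, after their values were seen. Some genes are not reported here. No p-value was computed, since each list is 1 library. Alternatives changed the window, boundary, threshold and list length.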

Additional observations from a re-analysis of the deposited data

How the results depend on the processing

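The counts of members with a peak, in each of the 4 lists and in both Menin DMSO and UTX MI-503, stayed within 1.5 times their reported values under 7 other settings of window, boundary, threshold and list length. Menin DMSO counts ran from 37 (fold of at least 5) to 45 (3 kb window), UTX MI-503 counts from 41 (500 bp window) to 47 (3 kb window), and both from 36 to 44. Menin MI-503 stayed at 0 and UTX DMSO at 1. A further 2 alternatives were chosen after seeing the data. Adding transcription starts inside genes raised Menin DMSO to 48, UTX MI-503 to 50 and both to 47. Apart from transcription starts alone, shares over all genes were not counted under the other settings. These counts therefore describe the members only. With Menin DMSO and UTX MI-503 shortened to their 217 highest peaks, the length of the UTX DMSO list, fewer peaks were left. Then 1 member had Menin (Bard1), 2 had UTX (Xrcc3 and Atm) and 0 had both. The share over all genes at this length was not counted. Of 248 counts by route and setting, 21 moved by over 1.5 times, 16 of them under this shortening. The others were the p53 axis (1 gene left for Menin at a fold of at least 5, and 1 for each protein in a 500 bp window), base excision (2 left for Menin at that fold) and recombination (7 for UTX at transcription starts alone, where 4 of its genes have no start in the table). Peaks of 10 to 20 fragments, such as those of Trp53, Xpa and Ercc4 for UTX, are the least precise, and genes without a peak have no limit that these lists can give.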

Other observations

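Of 20 targets and regulators of p53, 12 had a Menin DMSO peak (60.0%, beside 31.2% of all genes), 13 (65.0%, beside 36.4%) a UTX MI-503 peak and 12 (60.0%, beside 28.4%) both. By −log10 q, the highest UTX peaks were at Bax (24.8-fold, with 13.0-fold Menin), a pro-apoptotic BCL2 family gene, Sesn2 (24.1-fold, with 6.86-fold Menin), a stress-induced inhibitor of mTORC1 signalling, and the kinase gene Plk3 (21.2-fold, with 16.8-fold Menin). Trp53inp1 had the only UTX DMSO peak of the list (1 of 20, 5%, beside 0.776% of all genes), at 8.35-fold, beside 21.8-fold UTX in MI-503 and 6.38-fold Menin. Cdkn1a, Bbc3, Perp, Fas, Plk2, Phlda3 and Usp7 had no peak in any of these lists within 1 kb of an annotated end. Peaks at transcription starts inside these genes were not looked for.

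Of 12 genes of translesion synthesis and direct reversal, 8 (66.7%, beside 31.2% of all genes) had a Menin DMSO peak, 8 (66.7%, beside 36.4%) a UTX MI-503 peak and 7 (58.3%, beside 28.4%) both. By −log10 q, the highest UTX peaks were at Alkbh2 (26.3-fold, with 5.53-fold Menin), which removes alkyl groups from bases, Polk (14.8-fold, with 14.2-fold Menin), a bypass polymerase gene, and Alkbh3 (12.5-fold, with 6.79-fold Menin). Mad2l2, Poli and Rad18 had neither within 1 kb of an annotated end, and their transcription starts were not checked. The Alkbh2 values equal those of the base excision gene Ung.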
